A study of Homo sapiens with 6 samples.

Results

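The Fc receptor-like genes are a family of immunoglobulin-fold proteins made mainly by B cells, and 7 of them were named for description: FCRL1, FCRL2, FCRL3, FCRL4, FCRL5, FCRLA and FCRLB. They were looked up by symbol in a deposited table of 29571 genes, where 6 of the 7 had a row. FCRL4, a receptor of tissue memory B cells, had no row in the table used here and was not analysed here. The family was selected on its FPKM levels in the groups compared here, so its differences are given as a description and no test is attached to them.

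The samples were DB cells, a long-established line grown from a human diffuse large B-cell lymphoma, labelled DB_ZHX2 (called ZHX2 cells here) or DB_ZHX2_Mut4 (Mut4 cells). Each group had 3 labelled libraries of poly(A)-selected RNA, and both were set against each other to look for pathways that differ. ZHX2 is a zinc finger and homeobox transcription factor. The labels state neither what Mut4 changes nor whether or how a form was introduced. They also do not state whether lines were clonal, nor any treatment or time. No DB cells without either of these labels are in the series, so "higher" and "lower" refer to the other group only. ZHX2 itself was measured at 14.9 FPKM (Mut4) and 18.03 FPKM (ZHX2), a level that cannot separate the cells' own transcript from an introduced one.

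The values are FPKM, fragments per kilobase of transcript and per sequencing depth, a level that can be compared between genes of different length. Within a group the 3 columns were one profile multiplied by constants: replicates 2 and 3 were 1.053 and 1.21 times replicate 1 in Mut4 cells, and 1.33 and 0.897 times replicate 1 in ZHX2 cells, for every member. A group thus amounts to n = 1. The mean of its columns was taken as its level, and no standard deviation or p-value of a difference can be given. The spread between columns is the spread of these constants and not a replicate error. The table holds no counts, and sequencing depth is unknown. Ratios are Mut4 over ZHX2 on the log2(FPKM + 1) scale, which understates differences of low genes, and plain FPKM ratios are called linear.

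The cells expressed the B-cell markers fixed for the check at high levels, with 6 of 6 above 1 FPKM and MS4A1, which encodes CD20, at 146.3 FPKM (Mut4) and 147.3 FPKM (ZHX2). Their summed level was 633.1 FPKM for Mut4 and 586.4 FPKM for ZHX2 cells. T-cell markers summed to 0.555 and 0.655 FPKM over the 4 of 5 with a row, with CD3G at 0 in both groups. NK-cell markers summed to 3.32 and 2.24 FPKM over 4 of 5, nearly all of it NKG7, with GNLY at 0. Myeloid markers summed to 3.67 and 4.38 FPKM over 4 of 5, with S100A8 at 0. Plasma-cell markers, all 5 measured, summed to 170.1 and 226.6 FPKM, and the difference lay in XBP1, the secretory-pathway transcription factor (81.5 against 132.7 FPKM). Its part in the results below was not tested.

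FCRL proteins are relatives of the classical receptors for the constant part of antibodies. FCRL1 to FCRL5 span the surface membrane, and their cytoplasmic tails carry tyrosine motifs of the ITAM-like (activating) or ITIM (inhibitory) kind, which are phosphorylated by Src-family kinases and recruit adaptors or phosphatases that tune B-cell receptor signals. FCRLA and FCRLB lack this arrangement and stay inside the cell, where FCRLA resides in the endoplasmic reticulum and binds immunoglobulin before it is secreted. Several members are used as markers of memory, marginal zone or germinal centre B cells, and FCRL5 is an antibody target in myeloma.

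The genes lie on chromosome 1 in separate places (GENCODE v29 coordinates, GRCh38). FCRL5 (157513377 to 157552520), FCRL4 (157573749 to 157598080), FCRL3 (157674321 to 157700857), FCRL2 (157745733 to 157777132) and FCRL1 (157794403 to 157820105) follow one another on the minus strand, with gaps of 21.2, 76.2, 44.9 and 17.3 kb. FCRLA (161706972 to 161714352) and FCRLB (161721563 to 161728143) lie 3886.9 kb farther along on the plus strand, 7.21 kb apart.

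Promoter sequence is shown for the 4 members that differed by at least 1.5-fold, because all 4 hold the same short motif close to the start. The stretches are the last 100 bases before the RefSeq start (GRCh38.p14), read 5′ to 3′ on the gene's strand. For FCRLA they are cut to the match with 10 bases on each side, because exons of 6 GENCODE transcripts that begin farther upstream cover the match. Capitals mark AGGAAGT, a motif of the ETS transcription factor family, found here on the opposite strand and so printed as its reverse complement.
FCRL1, chr1:157820121-157820220, minus strand: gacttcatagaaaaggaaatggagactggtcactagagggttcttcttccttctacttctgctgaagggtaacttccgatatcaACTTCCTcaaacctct
FCRL2, chr1:157777133-157777232, minus strand: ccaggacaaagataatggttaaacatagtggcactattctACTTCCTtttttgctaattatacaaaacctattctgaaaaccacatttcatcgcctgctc
FCRL5, chr1:157552516-157552615, minus strand: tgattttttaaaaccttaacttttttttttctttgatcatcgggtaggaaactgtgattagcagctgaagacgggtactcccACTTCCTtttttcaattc
FCRLA, chr1:161707175-161707201, plus strand: agttaaatttACTTCCTcttttctaat

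The match ended 10 bases before the start in FCRL1, 54 in FCRL2, 12 in FCRL5 and 38 in FCRLA. FCRL1 and FCRL5 each held a further match outside the printed stretch, 211 and 145 bases before the start. No window of FCRL3, FCRL4 or FCRLB, which runs from 250 bases before to 50 bases after a RefSeq start, held these letters. Both strands were searched, and 8.24% of all 35116 RefSeq windows of that length hold the motif. The motif was chosen after the members' sequences had been read, and its presence is a description of letters only. It is found in 3 members that were higher and in 1 that was lower in Mut4 cells. Across the 986 genes past the filter on low levels described below whose window holds it, the median log2 ratio was 0.01, and it was also 0.01 across the 7898 genes without it. The shares at least 1.5-fold apart were 3.55% and 3.29%. The octamer ATGCAAAT, bound by OCT factors and present in 1.77% of windows, was found in 1 of 3 windows of FCRLB. The letters CCAAT, the core bound by NF-Y and present in 34.6% of windows, were found in FCRL5, FCRLA and 1 window of FCRLB. The motifs do not overlap one another in these windows.

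In the comparison of the groups, the surface receptors and FCRLA lay on opposite sides. FCRL5, FCRL2 and FCRL1 were higher in Mut4 cells, FCRL3 was less so, FCRLA was lower, and FCRLB was close to equal. At 1.5-fold, 3 of 6 members were higher and 1 was lower, where 2.54% of the 12643 genes past the filter were higher and 2.56% were lower. The filter required 1 FPKM or more in 3 or more columns, and all 6 members passed it. At 2-fold, 2 were higher (0.443% of all genes) and 1 was lower (0.712%). The median log2 ratio was 0.62 over the 6 members and 0.02 over all genes. The members were chosen with these values in view, so nothing is read from the excess over the background.

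**Figure D1:**
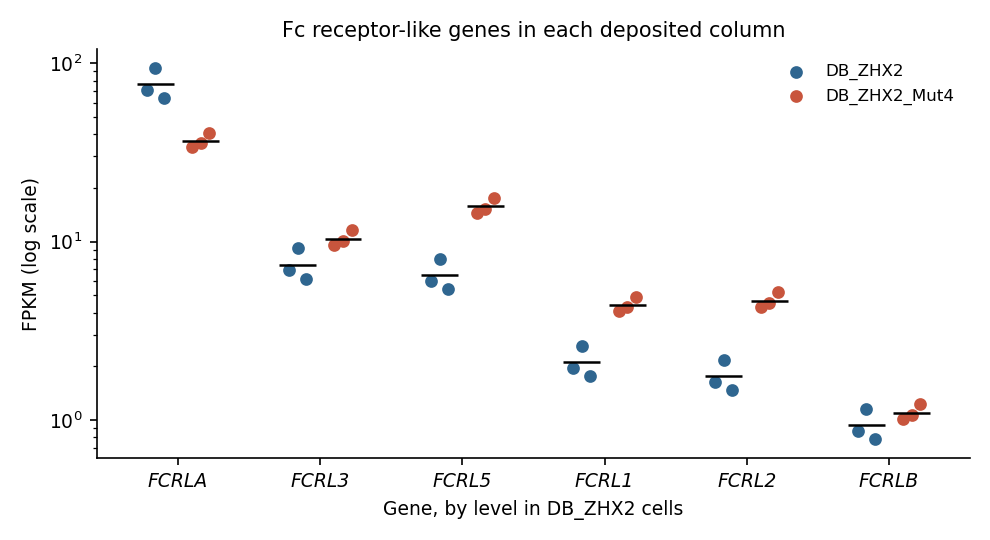
Level of each measured Fc receptor-like gene in FPKM (log axis) in the 3 deposited columns of each group; black bars are the group means, and the columns of a group are multiples of one profile. FCRLA is the highest gene in both groups and is lower in Mut4 cells, at 36.7 against 76.1 FPKM, while the 4 surface receptors are higher in Mut4 cells.

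FCRL5, a surface receptor that binds IgG, had the largest ratio of the family. Its level was 14.5, 15.3 and 17.5 FPKM in Mut4 replicates 1 to 3 and 6.03, 8.04 and 5.41 FPKM in ZHX2 replicates 1 to 3. Every Mut4 column lay above every ZHX2 column. For this and every other member, whether columns overlap is set by the ratio and the constants alone. It adds nothing to the ratio and is not replicate support. The means of 15.8 and 6.49 FPKM gave a log2 ratio of 1.16, or 2.24-fold, and a linear ratio of 2.43. Of the 12643 genes, 35 had a higher ratio. Of the 2853 other genes within 1.5-fold of its level, 1 did.

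FCRL2, an inhibitory receptor found on memory B cells, was low in both groups. It stood at 4.30, 4.52 and 5.19 FPKM in the Mut4 columns and at 1.64, 2.18 and 1.47 FPKM in the ZHX2 columns, without overlap. The log2 ratio was 1.04 (2.05-fold), and on the linear scale FCRL2 had the largest difference of the family at 2.65-fold (4.67 against 1.76 FPKM). Of the 3082 other genes within 1.5-fold of its level, 13 had a higher ratio.

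FCRL1, whose tail carries ITAM-like motifs and which acts as a co-activator of B-cell receptor signals, followed FCRL2 closely. The Mut4 columns held 4.07, 4.28 and 4.91 FPKM and the ZHX2 columns 1.95, 2.61 and 1.75 FPKM. Again the groups did not overlap, and the means of 4.42 and 2.11 FPKM gave a log2 ratio of 0.80 (1.74-fold, linear 2.10-fold).

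FCRL3, a receptor for secretory IgA with both kinds of tyrosine motif, did not reach 1.5-fold. The Mut4 columns held 9.56, 10.1 and 11.5 FPKM and the ZHX2 columns 6.89, 9.18 and 6.18 FPKM, so that the lowest Mut4 column lay just above the highest ZHX2 column. The log2 ratio was 0.44 (1.35-fold), and 772 genes had a higher one. It was 0.60, past 1.5-fold, when ZHX2 replicate 2 was left out, a setting that moved the median of all genes from 0.02 to 0.18.

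FCRLA, the endoplasmic reticulum protein, was the most abundant member and lay on the other side. The Mut4 columns held 33.8, 35.6 and 40.8 FPKM, against 70.7, 94.2 and 63.4 FPKM in the ZHX2 columns. Every Mut4 column was below every ZHX2 column. The means of 36.7 and 76.1 FPKM gave a log2 ratio of −1.03, or 2.04-fold lower in Mut4 cells, and 81 genes had a lower ratio. Among the 579 other genes within 1.5-fold of its level, 7 did. Of genes at such levels, 4.66% were at least 1.5-fold lower and 1.72% at least 1.5-fold higher.

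FCRLB, the other intracellular member and the neighbour of FCRLA, was close to the filter. The Mut4 columns held 1.01, 1.07 and 1.22 FPKM and the ZHX2 columns 0.869, 1.16 and 0.780 FPKM, and these overlapped. The log2 ratio of 0.12 is small, and 4422 genes had a higher one.

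**Figure D2:**
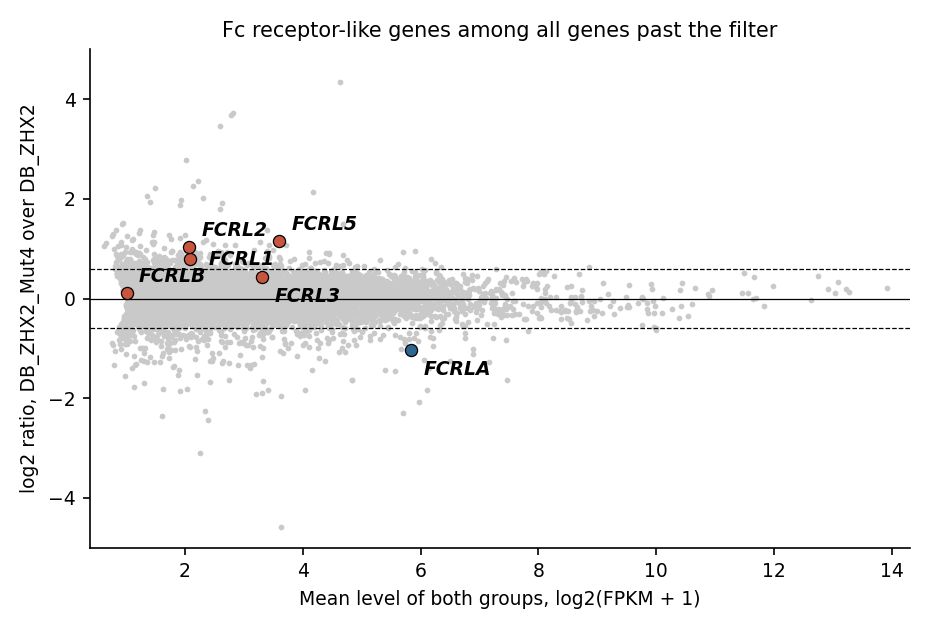
Log2 ratio of Mut4 over ZHX2 cells on the log2(FPKM + 1) scale against the mean level of both groups, for 12643 genes (grey) and the 6 members (coloured); dashed lines mark 1.5-fold. FCRL5, FCRL2 and FCRL1 lie above the upper line, FCRLA lies below the lower one, and FCRL3 and FCRLB lie between them.

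Because each column is a profile times a constant, a ratio between 2 members inside a group is free of the constants. FCRLA was 11.7 times FCRL5 in ZHX2 cells and 2.33 times FCRL5 in Mut4 cells, so this balance differed 5.03-fold between the groups. Against FCRL2 the balance of FCRLA differed 5.49-fold (43.2 and 7.87 times), against FCRL1 4.35-fold and against FCRL3 2.90-fold. FCRLA over its neighbour FCRLB was 81.3 in ZHX2 and 33.4 in Mut4 cells, a 2.44-fold difference. Among the 3 receptors that were higher in Mut4 cells the proportions were closer. FCRL5 was 3.69 times FCRL2 in ZHX2 and 3.37 times in Mut4 cells, and 3.08 and 3.57 times FCRL1. FCRL3 over FCRL5 was 1.14 in ZHX2 and 0.660 in Mut4 cells.

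The order of levels therefore changed in places. In ZHX2 cells it was FCRLA, FCRL3, FCRL5, FCRL1, FCRL2 and FCRLB, and in Mut4 cells FCRLA, FCRL5, FCRL3, FCRL2, FCRL1 and FCRLB. The exchanges between FCRL5 and FCRL3 and between FCRL1 and FCRL2 have no replicate error to be set against, and FCRL1 and FCRL2 were 1.06-fold apart in Mut4 and 1.195-fold apart in ZHX2 cells.

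Summed over the family, the 4 surface receptors reached 35.2 FPKM (Mut4) and 17.8 FPKM (ZHX2), a 1.98-fold difference. FCRLA and FCRLB together reached 37.8 and 77.0 FPKM. The surface receptors thus made up 48.2% of the family's summed FPKM in Mut4 cells and 18.7% in ZHX2 cells, and FCRLA alone 50.3% and 80.3%. FCRL5 held 21.6% and 6.85%, and FCRL3 14.2% and 7.82%. The family's total was 73.1 FPKM (Mut4) and 94.8 FPKM (ZHX2), so each member's share also depends on the level of FCRLA. The share of FCRLB was 1.51% in Mut4 and 0.987% in ZHX2 cells, though its level was close to equal. In bulk RNA a change per cell and a change in the share of cells with the transcript cannot be told apart.

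**Figure D3:**
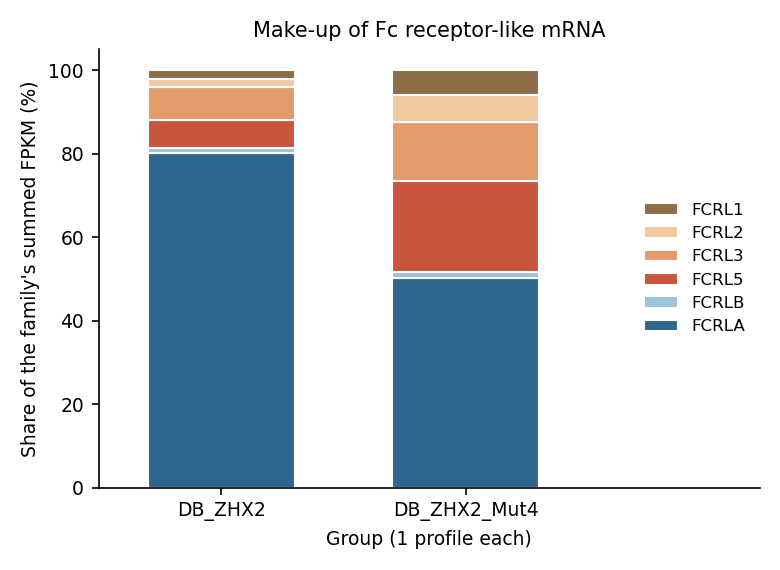
Share of each of the 6 measured members in the summed mean FPKM of the family (percent, stacked from 0) in ZHX2 and Mut4 cells, with 1 profile each. FCRLA takes 80.3% in ZHX2 cells and 50.3% in Mut4 cells, and the 4 surface receptors take 18.7% and 48.2%.

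The authors' deposited table marked 4 of the 6 members as significant, where it marked 0.514% of 29568 genes as higher and 0.747% as lower in Mut4 cells. Those 29568 genes include the ones that did not pass the filter, unlike the 12643 genes behind the shares above. The marked share among the 12643 genes was not computed. As Mut4 over ZHX2, the ratios in the authors' deposited table were 2.40 for FCRL5, 2.63 for FCRL2, 2.08 for FCRL1, 1.39 for FCRL3 and 1.16 for FCRLB, and FCRLA was 2.09-fold lower. These are the ratios of the replicate 1 columns, while the linear ratios above use column means. They are therefore not a separate measurement. The authors' deposited table gave q-values of 7.12e-08 for FCRL2, 2.75e-07 for FCRL5, 2.01e-05 for FCRLA and 0.000168 for FCRL1. For FCRL3 and FCRLB the authors' deposited table gave q-values of 0.198 and 0.772. The settings behind these q-values are not stated, and the columns beside them hold 1 profile per group. The rows of FCRL1 and FCRL2 in the deposited table each list 2 Entrez identifiers, the second being that of FCRLA or FCRLB, which share old symbols with them. Levels in the table are keyed by Ensembl gene, and all 6 identifiers matched GENCODE, so the levels of these pairs are separate.

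Shared sequence between the paralogues was checked in the GENCODE transcripts. Of all words of 100 bases in the longest coding transcript of each member, 0 occurred in a transcript of another gene. At 50 bases the share was 1.46% for FCRL5, all of it in the pseudogene AL135929.1, which lies in the same cluster and was listed at 0 FPKM in both groups. It was 0 for the other 5 measured members.

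Within 500 kb of a member, 35 of 70 annotated neighbours had a row and 10 passed the filter. Beside FCRL5 to FCRL1 only ETV3, a transcriptional repressor, passed, 374.9 kb from FCRL5, at 3.37 FPKM (Mut4) and 4.19 FPKM (ZHX2). CD5L, 10.8 kb from FCRL1, was at 0.0866 and 0.0332 FPKM. Beside FCRLA and FCRLB 9 passed, and 1 of them, HSPA6, was at least 1.5-fold lower, where 2.56% of all genes past the filter were. HSPA6 passed the filter only through the ZHX2 columns, the group where it was higher, so nothing is read from this count. HSPA6, an inducible HSP70 gene 180.1 kb from FCRLA, was at 0.632 FPKM (Mut4) and 7.84 FPKM (ZHX2). It was 5.42-fold lower in Mut4 cells on the log2(FPKM + 1) scale, and its linear log2 ratio was −3.63. DUSP12, a phosphatase gene 21.6 kb from FCRLB, was at 16.4 and 15.9 FPKM, and ATF6, a sensor of endoplasmic reticulum stress, at 4.35 and 5.52 FPKM. SDHC, a subunit of succinate dehydrogenase and the highest of these neighbours, was at 35.9 and 29.8 FPKM. The classical Fc receptor genes between HSPA6 and FCRLA were low: FCGR2B, the inhibitory receptor for IgG, was at 0.459 and 0.650 FPKM, and FCGR3A was listed at 0 in both groups.

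**Figure D4:**
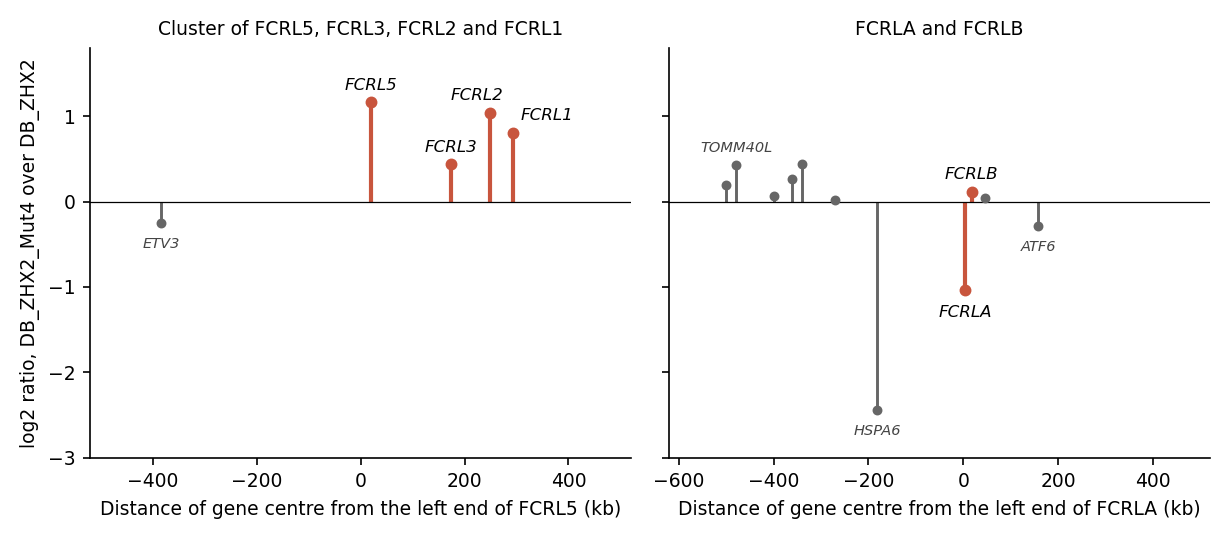
Log2 ratio of Mut4 over ZHX2 cells for the members (red) and for neighbours within 500 kb that passed the filter (grey), against the distance of the gene's centre from the left end of FCRL5 (left) or FCRLA (right) in kb. The 4 members on the left lie above 0 and ETV3 below, while on the right FCRLA (−1.03) and HSPA6 (−2.44) stand apart from FCRLB and from the other neighbours shown. HSPA6 passed the filter only through the ZHX2 columns.

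Genes related to the family were described by 8 lists. Of the 92 genes named, 80 had a row and 61 passed the filter, and 2 were at least 1.5-fold higher and 0 lower in Mut4 cells, against 2.54% and 2.56% of all genes. The median log2 ratio over these 61 genes was 0.09.

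Among 16 other Fc receptors, 10 had a row, 4 passed and none was 1.5-fold apart. FCMR, the receptor for IgM, led them with 9.07 FPKM (Mut4) and 10.003 FPKM (ZHX2), and TRIM21, the cytosolic antibody receptor, had the lowest ratio of them at −0.35. Other inhibitory receptors of B cells passed in 4 of 13 cases, again with none 1.5-fold apart. CD22, a sialic acid-binding inhibitory receptor, had the highest level, 46.02 and 46.7 FPKM. Of 5 CD1 genes, which lie near the surface cluster, 2 had a row, CD1A and CD1D, and neither passed.

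The signalling machinery of the receptor tails was measured in full, with 15 of 15 passing, 0 at 1.5-fold and a median of 0.15. GRB2, an adaptor, was highest at 83.8 and 73.1 FPKM. PTPN6, which encodes the phosphatase SHP-1 recruited by ITIMs, stood at 10.4 and 9.13 FPKM, and SYK, the kinase recruited by ITAMs, at 65.6 and 58.0 FPKM.

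The 2 related genes past 1.5-fold were IGHG4 and SPIB. IGHG4, an IgG constant region, had 7.09 FPKM (Mut4) and 3.73 FPKM (ZHX2), 1.71-fold apart. The IgG constant regions are close copies of one another, so how reads were divided among them is uncertain. IGHG1, IGHG2 and IGHG3 had log2 ratios of 0.55, 0.38 and 0.47. IGHA1, IGHM and the joining chain JCHAIN were at −0.0006, 0.04 and −0.06. IGKC, the kappa light chain, was the highest of the list at 2092.2 and 1869.5 FPKM. SPIB, a B-cell factor of the ETS family, was at 67.1 and 34.7 FPKM (1.91-fold higher in Mut4 cells). The other 16 of 17 B-cell transcription factors were within 1.5-fold, among them SPI1, the closest relative of SPIB in that list, at 12.8 and 11.8 FPKM. MEF2B, the most abundant of them, had 95.0 and 110.4 FPKM. When ZHX2 replicate 2 was left out, the count of related genes at least 1.5-fold higher was 7 and added IGHG1, IGHG3, IKZF1, PIK3CD and POU2F2. That setting rescales the whole ZHX2 profile by a constant, and the median log2 ratio of all genes moved from 0.02 to 0.18. The share of all genes past 1.5-fold in that setting was not computed, so nothing is read from the added genes.

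Markers of the memory and atypical B cells on which FCRL4 and FCRL5 are often seen did not lie to one side. Of 12 named, 10 had a row, 8 passed, 4 had ratios above 0, 0 were 1.5-fold apart and the median was −0.01. TBX21, the T-bet gene, was at 1.02 FPKM (Mut4) and 1.22 FPKM (ZHX2), and ITGAX, which encodes CD11c, at 0.0713 and 0.0598 FPKM.

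**Figure D5:**
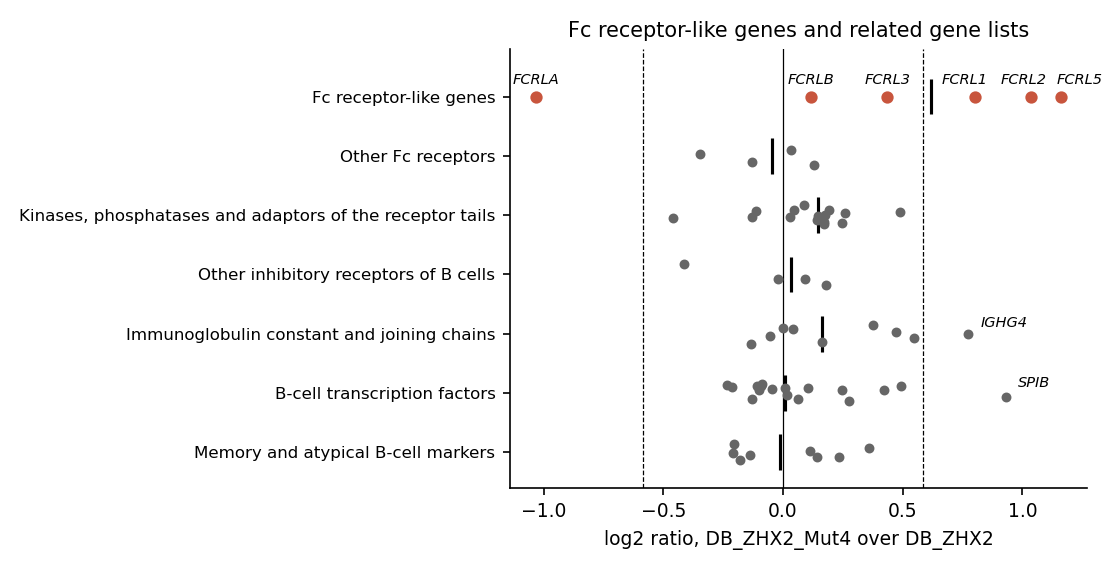
Log2 ratio of Mut4 over ZHX2 cells for the 6 members (red) and for the genes of 6 related lists that passed the filter (grey points, 1 gene each; vertical spread is for legibility only); black bars are list medians and dashed lines mark 1.5-fold. Of the related genes shown, IGHG4 and SPIB lie beyond a dashed line, while 4 of the 6 members do.

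Genes with the most similar levels were sought by the distance between genes in the plane of the 2 group levels, over 11712 genes with a symbol. With only 2 profiles this likeness says little beyond level and ratio. Nearest to FCRL5 were SH3BP1 (14.02 FPKM in Mut4, 6.61 FPKM in ZHX2) and BOLA2B, and nearest to FCRLA were SEPHS2 (39.7 and 70.4 FPKM) and TRAM1 (36.2 and 68.2 FPKM). Nearest to FCRL1 were MIR6859-3 and CXCL10, to FCRL2 CDC42-AS1 and TRBJ2-4, to FCRL3 SUCLG2 and KLHL14, and to FCRLB RPL15P5 and CDR2L.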

How the data were processed

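RNA-seq of 6 libraries, 3 per group, was given as 1 table of genes. FPKM values were made by the authors, per the file headers, and the deposited table adds for each gene a linear ratio of ZHX2 over Mut4, the log2 of that ratio, and p-values and q-values. Reads were handled with fastp, HISAT2, StringTie and edgeR on GRCh38, per the submitters' processing notes. Versions and settings are not given in the sources used here. The columns of a group were constant multiples within a tolerance of 1e-06, except at ATG5 and ACSL1. The limma fit of the design was therefore not run, and groups are compared as 1 sample each. In 3 rows (ACSL1, ATG5 and SLC7A11) FPKM, ratio and log2 value disagreed, and they were left out. Symbols in which "up" had become "down" (15) were restored by gene ID.

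Ratios used log2(FPKM + 1) of column means, a filter of 1 FPKM in 3 columns (12643 genes) and a 1.5-fold mark. Members, lists and motifs were chosen with earlier results of these data known. Genes named are the members, each list's highest gene, those past 1.5-fold, the 2 nearest in level, and a few of known role chosen after their values were seen; some listed genes are not reported here. Promoters are from RefSeq, genes and transcripts from GENCODE v29. The ratio and counting steps were tested on simulated data, with changes larger than those of the members. The other steps were not tested in this way. Python 3.11.15, numpy 2.4.6, pandas 2.3.3 and matplotlib 3.10.9 were used.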

Additional observations from a re-analysis of the deposited data

How the results depend on the processing

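Over 13 alternatives the sign of every member's ratio was kept where it could be computed, and FCRLA was the only member at least 1.5-fold lower in each. Leaving out columns or keeping only replicate 1 rescales a group's profile for all genes, and the filter settings leave a member's ratio as it was. Kept signs in these settings therefore say little about robustness. One alternative, the plain FPKM ratio, was chosen after seeing the data. Values were set against the spread of the 9 column pairings, which reflects constants and not replicates. No paired analysis was possible because same-numbered columns carry no variation of their own. With the filter at 5 FPKM, FCRL1, FCRL2 and FCRLB did not pass and 1 member was at least 1.5-fold higher. At a pseudocount of 0.1 the log2 ratios of FCRL1 and FCRL2 were 1.03 and 1.36, and without a pseudocount they were 1.07 and 1.41. These follow from the pseudocount, which shrinks low genes. At a pseudocount of 0.1, 1 related gene, PDCD1 (0.670 FPKM in Mut4, 1.22 FPKM in ZHX2), was at least 1.5-fold lower. PDCD1 is near the filter and passed it only through the ZHX2 columns, so nothing is read from this count. With 1 column left out, log2 ratios ranged from 0.72 to 0.92 for FCRL1, 0.96 to 1.15 for FCRL2, 0.33 to 0.60 for FCRL3, 1.06 to 1.32 for FCRL5, −1.15 to −0.85 for FCRLA and 0.06 to 0.20 for FCRLB. The members at least 1.5-fold higher then numbered 3 to 4, and related genes 2 to 7. The upper counts came from leaving out ZHX2 replicate 2, where the median of all genes was 0.18 against 0.02 in the main setting. Shares of all genes past 1.5-fold in these settings were not computed. Depth is unknown, and levels near 1 FPKM such as FCRLB carry the least information.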
